A study of Mus musculus with 10 samples.

Results

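The genes described here encode the proteins of the cytosolic ribosome. They were taken by symbol: Rpl or Rps followed by a number and at most one of the endings a, x, l or l1, together with Rplp0, Rplp1, Rplp2 and Rpsa. Rows named as pseudogenes (ending in -ps) and unnamed gene models (starting with Gm) were left out. The rule found 86 of the 55385 gene rows, 53 with large-subunit symbols and 33 with small-subunit symbols. The annotation lists 82 of them as protein-coding and 4 as pseudogenes (Rps4l, Rps12l1, Rpl32l and Rpl6l). Of the 86, 81 passed the filter on low counts and were tested (49 large-subunit and 32 small-subunit). The 5 that were not tested were Rpl10l and Rps12l1, with 0 counts in every library, and Rpl32l, Rpl39l and Rpl6l.

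The libraries are total RNA-seq of left ventricles from mice of the strain that the labels spell C56Bl6, 5 in each of 2 groups. Control animals were kept on standard chow, and HFpEF animals on high-fat chow plus L-NAME, which blocks the nitric oxide synthases; both diets lasted 6 weeks. The regimen is a model of heart failure with preserved ejection fraction, from which the group has its name. No genotype other than the strain, and no age or sex, was used here. Each library was taken as 1 replicate; the labels do not say that each came from a separate animal, so p-values reflect how these libraries vary, and that variation may be technical.

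The cytosolic ribosome joins a small subunit, which reads the messenger RNA, and a large subunit, which forms the peptide bond. Each subunit is an RNA scaffold coated with proteins, most of them needed in a single copy per ribosome. Their genes are transcribed in nearly every cell, and most of their messenger RNAs start with a terminal oligopyrimidine tract (TOP), a run of C and T through which mTORC1 signalling, by way of LARP1 and the 4E-BP proteins, sets how much of the messenger RNA is translated. Control of this kind acts on translation and need not alter the amount of messenger RNA, which is what these libraries measure. Muscle also makes Rpl3l, a paralog that takes the place of Rpl3 in ribosomes of heart and skeletal muscle.

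A short run of C and T, of the kind such a tract can hold, was looked for around the annotated start sites. In RefSeq's promoter table (GRCm38.p6), which held 63 of the 86 genes, the letters CTTTCC were searched on the sense strand in a window of 50 bases centred on the annotated start. They were found for 11 genes, or 17.5%, against 2.92% of all genes in the table. A tract need not hold these exact letters, and letters before the start are not part of one. The share is therefore not a count of genes with a tract. Windows of 40 bases, 20 on each side of the start, are printed for 3 of these genes and for Rpl3l, with CTTTCC in capitals. In these 3 genes the letters lie at or just after the annotated start. In others of the 11, among them Rpl4 and Rpl39l, they lie before it.
Rpl15 (chr14:18270967-18271006, minus strand): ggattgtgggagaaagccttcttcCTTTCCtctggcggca
Rpl38 (chr11:114668560-114668599, plus strand): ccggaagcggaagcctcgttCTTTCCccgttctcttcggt
Rps27 (chr3:90213629-90213668, minus strand): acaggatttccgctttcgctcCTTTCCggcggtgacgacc
Rpl3l (chr17:24727806-24727845, plus strand, the first of its 2 listed starts): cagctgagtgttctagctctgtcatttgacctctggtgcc
The window of the muscle paralog Rpl3l held no such letters at either listed start, which was also so for most of the 63 genes. A further search over the full promoters, both strands and with overlaps allowed, found CCGGAAG in 39.7% of the ribosomal protein genes and in 9.93% of all genes. AAGATGGC was found in 9.52% and 3.19%, and TATAAA before the start on the sense strand in 4.76% and 8.94%. These matches are descriptions of the letters and were not tested.

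No ribosomal protein gene was called between the groups. At an adjusted p below 0.05 in edgeR's quasi-likelihood test, 0 of 81 were higher in HFpEF and 0 of 81 lower, where 3.24% of all 18491 genes tested were called higher and 2.09% lower, 5.33% in all. At an unadjusted p below 0.05 the same test held 7 of the 81 (6 higher, 1 lower), or 8.64%, against 20.5% of all genes (10.6% higher, 9.91% lower). DESeq2 called 0 of 81, where it called 8.49% of the genes to which it gave an adjusted p. In DESeq2 10 of the 81 had an unadjusted p below 0.05. The share of all genes at that level was not computed for DESeq2, so this count has nothing to be read against. The smallest adjusted p was 0.109 with edgeR and 0.0886 with DESeq2.

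The estimates were small in both directions and precise. Of the 81 log2 fold changes (HFpEF minus Control), 45 lay above 0 and 36 below, from -0.34 for Rpl24 to 0.18 for Rps23. Their median was 0.02, with 0.02 over the large-subunit and 0.02 over the small-subunit genes, beside -0.01 over all genes tested. The median absolute change was 0.06, against 0.11 over all genes tested and 0.08 over genes with a mean log2 CPM (counts scaled to library size) of 3 or more. The median standard error was 0.06, against 0.10 over all genes. The 95% interval lay within 1.2-fold in either direction for 64 of the 81, or 79.0%, against 34.0% of all genes tested. It lay within 1.5-fold for 80 and within 2-fold for all 81. For the SE and the interval no comparison was made with genes of a similar level alone.

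**Figure D1:**
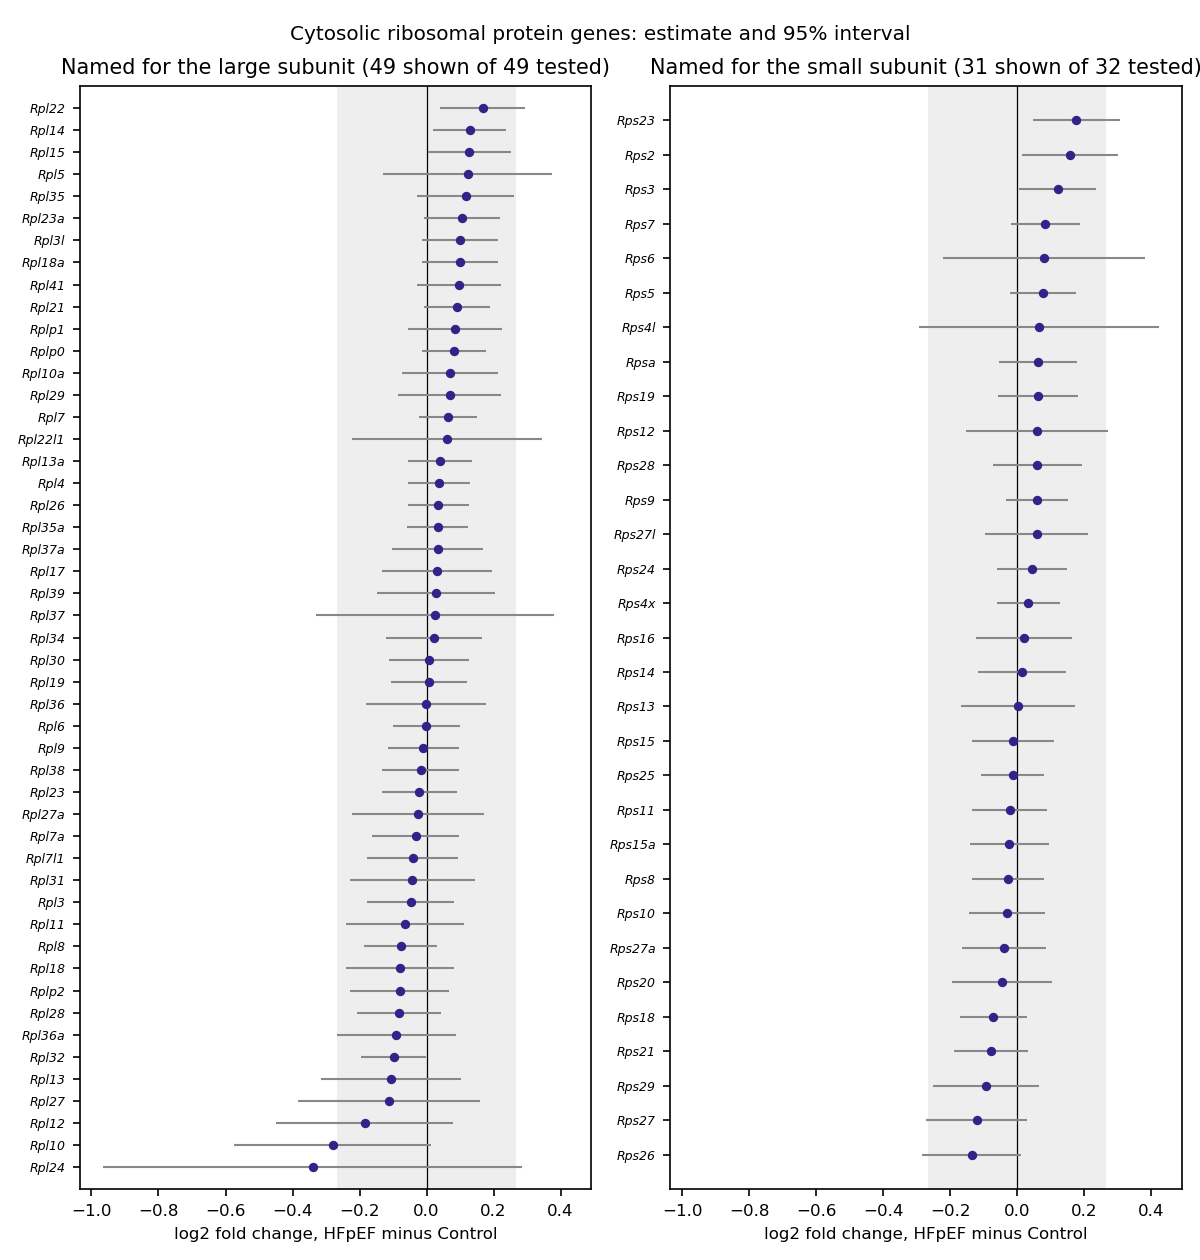
Log2 fold change (HFpEF minus Control, horizontal axis) of 80 of the 81 tested genes with its 95% interval, genes with large-subunit symbols left and small-subunit symbols right, each sorted by its estimate; the grey band marks 1.2-fold in either direction. Most intervals stay inside the band, and the widest belongs to Rpl24, at the foot of the left panel.

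The pool as a whole took a similar part of each library. Of all counts, the genes held 0.332% ± 0.0240 (SD, n = 5) in the Control libraries and 0.318% ± 0.00968 (SD, n = 5) in the HFpEF libraries. Genes of the mitochondrial genome held 35.7% ± 1.70 of a Control library and 37.6% ± 0.897 of an HFpEF library (SD, n = 5), a difference larger than the SD of the Control libraries, with overlap between the groups. Outside them the ribosomal protein share was 0.516% ± 0.0248 in Control and 0.510% ± 0.0113 in HFpEF (SD, n = 5). The ratio of large-subunit to small-subunit CPM was 1.36 ± 0.0250 in Control and 1.35 ± 0.0175 in HFpEF (SD, n = 5). In both shares of the ribosomal protein genes and in the ratio of the subunits, the difference between the group means was smaller than the SD of the Control libraries, and the groups overlapped. As scores over the genes they were given no test.

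The spread between libraries was larger than the difference between the group means. The median deviation of the 81 genes from their own mean over the libraries, in log2 CPM, was highest in Control 5, at 0.09, and lay between -0.05 and 0.06 in the other 9. Its mean was -0.0061 ± 0.0544 in Control and 0.0101 ± 0.0382 in HFpEF (SD, n = 5). In Control 5, 64 of the 81 genes were above their own mean, and in HFpEF 5, 21. Control 5 was also the deepest library, at 46108710 counts, where the lowest total was 31286355, and had the smallest mitochondrial share, 33.6%. Whether depth or that share had a part in its level was not tested. Without Control 5 the median log2 fold change was 0.04 and 59 of the 81 estimates lay above 0; 0 were called.

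**Figure D2:**
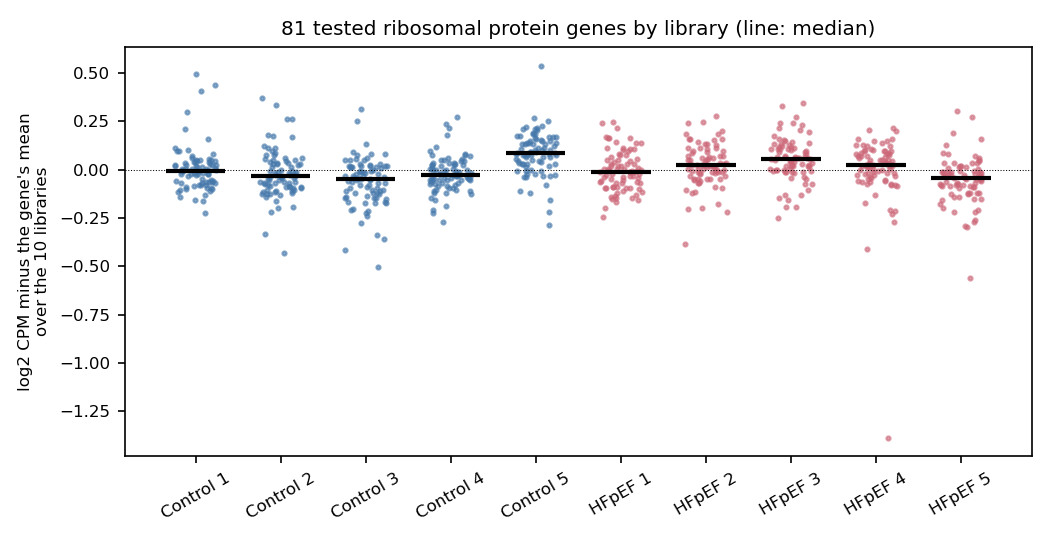
Log2 CPM of each of the 81 tested genes minus its own mean over the 10 libraries (vertical axis), by library, with Control in blue and HFpEF in red; the black line is the median of the library. The median is highest in Control 5, at 0.09, and the single point far below the others in HFpEF 4 is Rpl24.

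The cell makeup of the tissue bears on any bulk level, since fewer cells of a type and less RNA per cell cannot be told apart. Summed CPM of the 9 cardiomyocyte markers lay between 69505 and 73959 in Control and between 71363 and 76482 in HFpEF, so the groups overlapped, and 1 of the 9, Tnnt2, was called lower (log2 fold change -0.22 ± 0.05, SE, adjusted p = 0.0184). Of the atrial markers, Myl7 stayed at or below 0.314 CPM and Sln at or below 0.0973 CPM in every library, and Nppa was called lower (-1.19 ± 0.22, adjusted p = 0.0187). Of the 5 atrial markers 3 were tested and 1 was called. Their summed CPM was 37.5 to 58.5 in Control and 15.9 to 30.1 in HFpEF, without overlap. Summed CPM of the 9 macrophage markers was 150 to 243 in Control and 127 to 162 in HFpEF, with 0 of 9 called and a median log2 fold change of -0.30. All 9 estimates lay below 0, and 5 had an unadjusted p below 0.05 in edgeR's test, or 55.6% against 20.5% of all genes. Of the 8 endothelial markers, Egfl7 and Emcn were called lower, at -0.30 and -0.27, and the summed CPM was 1123 to 1316 in Control and 1055 to 1247 in HFpEF. No tested marker was called for fibroblasts (0 of 8), smooth muscle and pericytes (0 of 8), lymphocytes (0 of 5), erythroid cells (0 of 5), adipocytes (0 of 1) or skeletal muscle (0 of 2). At an unadjusted p below 0.05 in edgeR's test their counts were 2, 1, 0, 0, 0 and 1. The same counts were 3 of 9 for cardiomyocyte, 1 of 3 for atrial and 3 of 8 for endothelial markers. Of all genes tested, 2.09% were called lower. The part of these shifts in the ribosomal protein values was not tested.

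Rpl22 was the single member whose groups did not overlap. It encodes a large-subunit protein that is also known as an RNA-binding protein and has its own paralog, Rpl22l1. Its level was 25.4, 25.6, 22.1, 24.9 and 23.9 CPM in Control 1 to 5 and 28.4, 26.1, 30.5, 25.8 and 26.1 CPM in HFpEF 1 to 5. Every HFpEF library lay above every Control library, by a narrow margin between Control 2 and HFpEF 4. The log2 fold change was 0.17 ± 0.06 (SE, n = 5 per group; edgeR adjusted p = 0.119), with an interval from 0.04 to 0.29. One gene without overlap among 81 compares with 3.88% of all genes tested with HFpEF above Control and 2.93% with HFpEF below, 6.81% in all. Of the counts of Rpl22 and its look-alike copies, 0.155% lay on the copies.

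Rps2 and Rps3, small-subunit proteins of the face where messenger RNA enters, had small positive estimates. Rps2 had the highest level per length of all members, 241.6 CPM per kb of transcript over all libraries. It read 218, 211, 201, 225 and 244 CPM in Control 1 to 5 and 216, 263, 252, 266 and 228 CPM in HFpEF 1 to 5. HFpEF 2, 3 and 4 lay above every Control library, and HFpEF 1 and 5 within the Control range. Its log2 fold change was 0.16 ± 0.07 (adjusted p = 0.202). Rps3 read 44.3 to 52.6 CPM in Control (median 47.7) and 48.5 to 55.2 in HFpEF (median 52.8), with overlap and a log2 fold change of 0.12 ± 0.05 (adjusted p = 0.224).

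Rpl32 had the smallest p among the negative estimates. It encodes a large-subunit protein and is often used as a reference transcript. Its level was 29.6, 31.01, 29.3, 28.6 and 30.1 CPM in Control 1 to 5 and 26.4, 29.1, 28.7, 27.4 and 27.1 CPM in HFpEF 1 to 5. HFpEF 2 and 3 overlapped the lowest Control libraries and the other 3 HFpEF libraries lay below them. This gave a log2 fold change of -0.10 ± 0.05 (adjusted p = 0.237). Snora7a and other genes overlap 20.04% of its exonic bases, and 0.443% of the counts of Rpl32 and its copies lay on copies. Scaled by total counts, a setting that moved the median of all genes tested from -0.01 to -0.11, Rpl32 was the single member called (log2 fold change -0.20, adjusted p = 0.0310).

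The other estimates at the edges of the list came from genes with near-identical copies that also held counts. Ribosomal protein genes have left many processed pseudogenes, intronless copies of their messenger RNA, across the mouse genome. A search of pseudogene and Gm transcripts against the member transcripts (at least 90% identity over at least 50% of the copy) found 1168 copies of 79 members, of which 744 held counts. Of the 38 copies with a mean of 100 or more counts, 19 were 100% identical to the member along the aligned bases. Over all families, 21.1% of the counts lay on copies.

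For 15 members at least 50% of the summed counts of gene and copies lay on copies, for 36 at least 10%, and for 27 under 1%. The share on copies was 91.4% for Rpl12, 91.1% for Rpl5, 89.96% for Rpl27 and 89.0% for Rpl10. The largest copies were Gm15500 of Rpl5, with a mean of 2890 counts per library, and Rpl10-ps3, with 2528, both 100% identical to their genes. Gm11518 and Rpl27-ps3, both 100% identical to Rpl27, held the same count in every library, a mean of 642.5. RSEM, which the submitters' processing notes name, divides reads that match several places. Whether the deposited counts were made in this way was not tested, and the row of a gene alone is uncertain where near-identical copies hold counts.

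With the counts of copies added to their gene, 0 of 81 families were called, where 5.4% of all rows were. At an unadjusted p below 0.05 there were 4 families, or 4.94%, against 20.6% of all rows. These were Rpl22 (0.17), Rps2 (0.15), Rps3 (0.12) and Rpl24 (-0.16). The groups did not overlap for 2 of the 81 sums, or 2.47%, against 6.85% of all rows. They were Rpl22 and Rpl11, whose sum was 32.0 ± 0.520 CPM in Control and 30.2 ± 0.566 in HFpEF (SD, n = 5), a log2 fold change of -0.08 ± 0.04 (adjusted p = 0.268). Rpl11, a protein that binds Mdm2 when ribosome assembly is disturbed, is named after its values were seen. The estimates then lay between -0.16 and 0.17, with a median of 0.01, and the interval of 74 of the 81 lay within 1.2-fold. Among the 15 members with at least 50% of their counts on copies, the median absolute log2 fold change was 0.09 for the row of the gene and 0.05 with copies added. In this group 12 of 15 estimates came closer to 0, 7 of 15 changed sign, and the median SE was 0.10 before and 0.05 after. Among the 21 members with 10% to under 50% on copies the median absolute value was 0.05 before and 0.05 after. Of these 21, 12 came closer to 0 and 4 changed sign. Among the 45 members with under 10% on copies the median absolute value was 0.06 before and 0.06 after. Of these 45, 30 came closer to 0 and 2 changed sign.

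**Figure D3:**
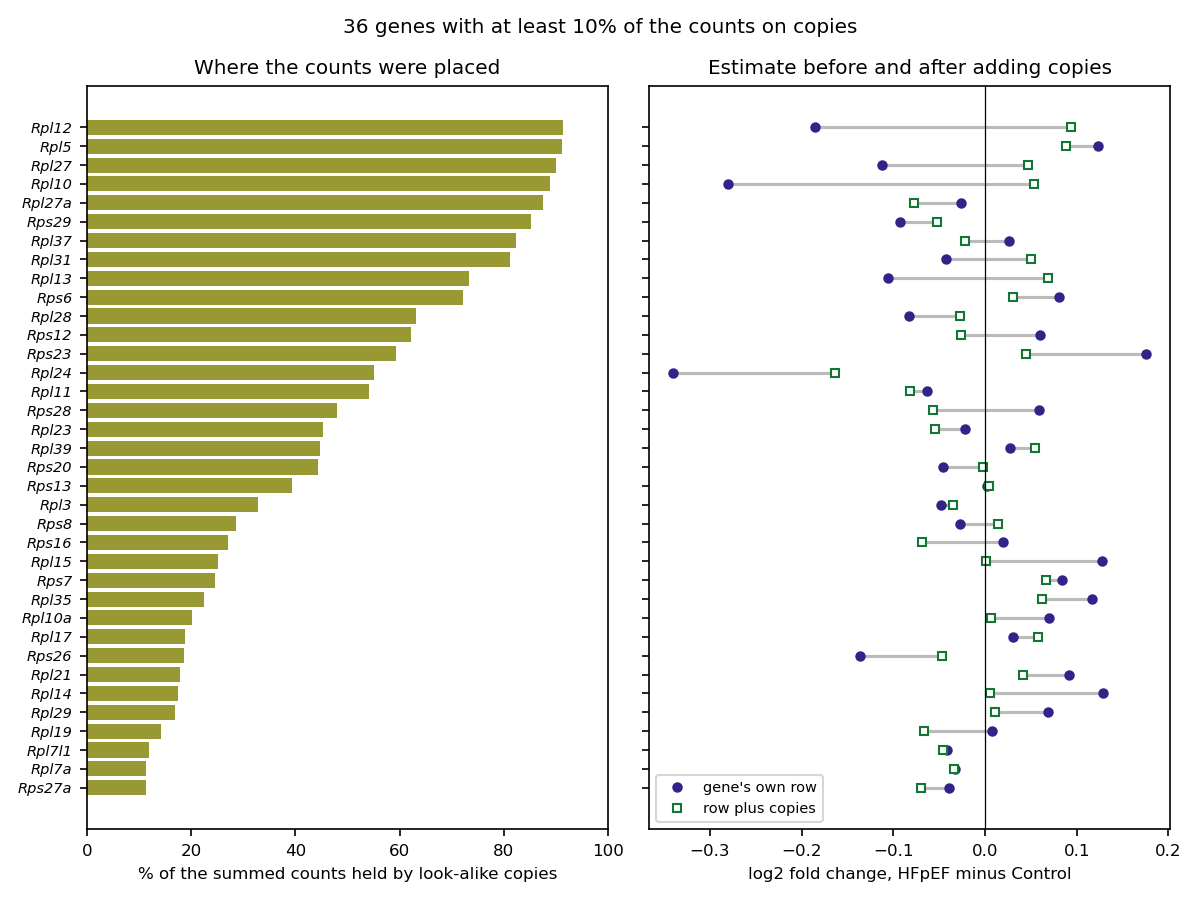
For the 36 members with at least 10% of counts on look-alike copies, the share on copies (left, in percent of the summed counts of gene and copies) and the log2 fold change, HFpEF minus Control (right), for the row of the gene (filled circles) and for gene plus copies (open squares). The genes are sorted by share, from Rpl12 at the top, Rpl10, Rpl12, Rpl13 and Rpl27 move across 0, and Rpl24 and Rps23 move toward it.

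Rps23 showed how an estimate at the top of the list stood once copies were added. It encodes a protein of the decoding centre of the small subunit. Its row read 14.1, 15.5, 13.8, 14.2 and 15.4 CPM in Control 1 to 5 and 15.99, 17.3, 18.0, 15.3 and 15.9 CPM in HFpEF 1 to 5. The groups touched at HFpEF 4, which lay below Control 2 and 5. Its row gave a log2 fold change of 0.18 ± 0.06 (adjusted p = 0.109), the smallest adjusted p of the 81. Of the family's counts 59.3% lay on copies, mostly on Rps23-ps1, which is 100% identical. The sum of row and copies was 37.5 ± 1.00 CPM in Control and 38.6 ± 1.30 in HFpEF (SD, n = 5), and its log2 fold change 0.04 ± 0.04 (adjusted p = 0.607).

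Rpl10, an X-linked gene whose protein completes the large subunit late in its assembly, had the estimate next to the lowest. Its row read 12.5, 9.09, 9.33, 9.01 and 9.42 CPM in Control 1 to 5 and 9.89, 6.76, 8.96, 8.96 and 6.00 CPM in HFpEF 1 to 5. Control 1 stood above the other Control libraries, and HFpEF 2 and 5 below all others. The log2 fold change of the row was -0.28 ± 0.14 (adjusted p = 0.266), and -0.18 without Control 1. With copies the level was 80.6 ± 2.53 CPM in Control and 83.6 ± 3.71 in HFpEF (SD, n = 5), with a log2 fold change of 0.05 ± 0.05 (adjusted p = 0.557).

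Rpl12, a protein of the stalk base where elongation factors bind, had a negative estimate on its row and a positive one with copies. Its row read 3.33, 2.55, 2.39, 2.35 and 2.61 CPM in Control 1 to 5 and 2.32, 2.65, 2.21, 2.40 and 2.04 CPM in HFpEF 1 to 5. Control 1 was again the highest, and the groups overlapped. The row gave -0.18 ± 0.12 (adjusted p = 0.431), and -0.09 without Control 1. With copies, 28.0 ± 1.12 CPM in Control and 29.9 ± 1.89 in HFpEF (SD, n = 5) gave 0.09 ± 0.05 (adjusted p = 0.332).

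Rpl14, Rpl15 and Rps26 moved toward 0 as well. Rpl14 read 31.1 to 37.1 CPM in Control (median 34.96) and 36.6 to 38.4 in HFpEF (median 37.0), a log2 fold change of 0.13 ± 0.05 (adjusted p = 0.168) that became 0.01 with copies. Rpl15 read 38.2 to 44.4 CPM in Control (median 40.8) and 40.4 to 49.3 in HFpEF (median 45.5), 0.13 ± 0.06 (adjusted p = 0.223), and 0.0011 with copies. Rps26, which lines the exit of messenger RNA from the small subunit, gave -0.14 ± 0.07 (adjusted p = 0.283) and -0.05 with copies. In all 3 genes the groups overlapped.

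Rpl24 had the lowest estimate and the widest interval, and its value turned on 1 library. It encodes a large-subunit protein at the bridge between the subunits. Its row held 597, 657, 682, 925 and 1314 counts in Control 1 to 5 and 578, 700, 671, 207 and 487 counts in HFpEF 1 to 5. HFpEF 4 stood below all others, and Control 4 and 5 are the deepest libraries. In CPM the row was 21.1 ± 3.15 in Control and 16.7 ± 6.18 in HFpEF (SD, n = 5), a log2 fold change of -0.34 ± 0.27 (adjusted p = 0.544), and -0.14 without HFpEF 4.

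Reads of Rpl24 could be placed on 2 other kinds of row. Its look-alike Gm9385, a processed pseudogene on chromosome 9, held 615 to 1170 counts per library and differs from the Rpl24 transcript at 1 base over 472 aligned bases. The substitution is C472T, counted from the first base of the 677-base Rpl24 transcript, and it lies in the coding sequence. The bases around it are printed because they are the sole place along the alignment where a read tells the 2 rows apart, with the differing base in capitals (GRCm38; the Rpl24 stretch crosses an exon junction).
Rpl24 (chr16:55969610-55970115, plus strand): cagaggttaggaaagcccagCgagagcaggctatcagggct
Gm9385 (chr9:116040731-116040771, minus strand): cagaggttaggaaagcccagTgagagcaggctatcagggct
The other row is Gm28037, a processed transcript on the same strand whose exons cover 47.0% of the exonic bases of Rpl24. It was looked at after the values of Rpl24 had been seen.

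Gm28037 held 13, 126, 0, 0 and 33 counts in Control 1 to 5 and 140, 1, 152, 364 and 125 counts in HFpEF 1 to 5. Its highest count was in HFpEF 4, the library in which Rpl24 was lowest. The sum of Rpl24 and Gm28037 in HFpEF 4 was 571 counts, beside 612 to 823 in the other HFpEF libraries. The copies of Rpl24 held 889 counts in HFpEF 4 and 636 to 778 in the other HFpEF libraries. Together, row, copies and Gm28037 came to 1396, 1479, 1459, 1460 and 1343 counts in HFpEF 1 to 5, so that HFpEF 4 lay among the others.

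The estimate for Rpl24 followed what was summed. With the copies alone the log2 fold change was -0.16 ± 0.07 (adjusted p = 0.164), with Gm28037 alone -0.02 ± 0.11 (adjusted p = 0.935), and with both -0.02 ± 0.05 (adjusted p = 0.857), with an interval from -0.14 to 0.09. The last value lies within 1.2-fold in either direction, as the row by itself did not.

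**Figure D4:**
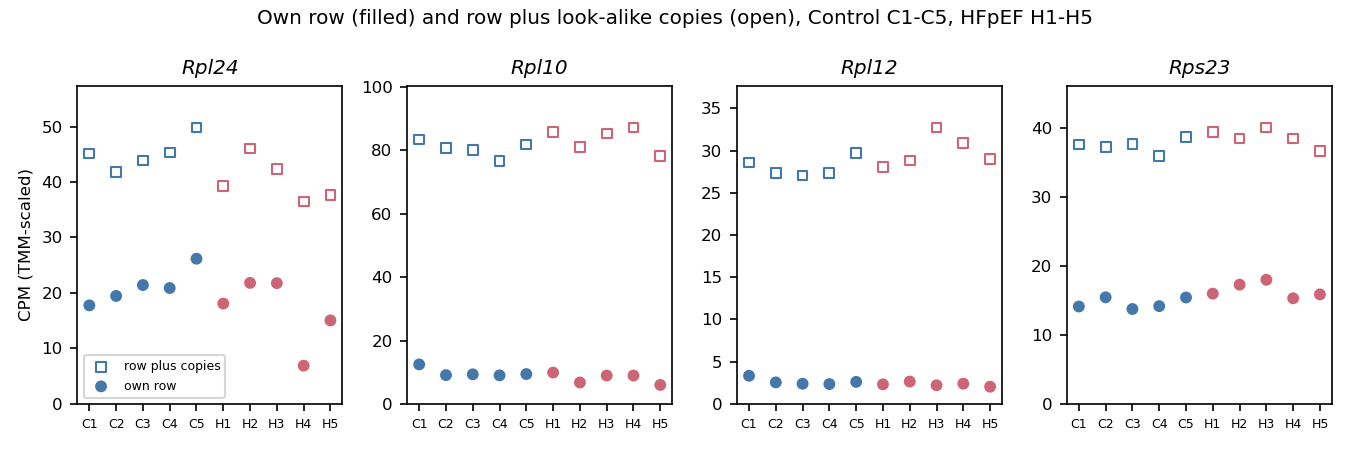
CPM of the gene's own row (filled circles) and of row plus look-alike copies (open squares) for Rpl24, Rpl10, Rpl12 and Rps23 in Control 1 to 5 (C1 to C5, blue) and HFpEF 1 to 5 (H1 to H5, red); each vertical axis starts at 0. Rpl24 falls in H4 on its own row, and the sums of Rpl10, Rpl12 and Rps23 overlap between the groups.

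Copies were also tested as rows of their own. Of the 143 copies that passed the filter, 1 was called, or 0.699%, where 5.33% of all genes were, and 13, or 9.09%, had an unadjusted p below 0.05 (3 higher, 10 lower), against 20.5% of all genes. The groups did not overlap for 3 of the 143, against 6.81% of all genes; beside the called row these were Rpl10-ps3, higher in HFpEF, and Gm17826 of Rpl7a, lower, both named after their values were seen. The called row, named here because it was the single call, was Gm15793, a processed pseudogene on chromosome 1 that matches Rpl12 at 97.0% identity. It read 0.595, 0.503, 0.849, 0.519 and 0.558 CPM in Control 1 to 5 and 2.00, 1.62, 1.395, 1.13 and 1.24 CPM in HFpEF 1 to 5. Every HFpEF library lay above every Control library, with a log2 fold change of 1.30 ± 0.20 (SE; edgeR adjusted p = 0.00182). Its mean level of 1.48 CPM in HFpEF compares with 29.9 CPM for Rpl12 and all its copies.

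Levels between genes were compared per kb of transcript. The rows of the 80 tested protein-coding members, paralogs included, spanned 2.00 to 241.6 CPM per kb, a range of 121-fold with a median of 43.1. With copies added the range was 5.78 to 255.8, or 44.2-fold, with a median of 62.3. The 5.78 belonged to Rps20, at 21.4 CPM with copies, and rests on an annotated transcript of 3706 bases. The width of this range therefore depends on the length taken for Rps20. Across the 80 genes the level of the row and the share on copies had a Spearman correlation of -0.559; the points share their libraries and, in part, the counts from which both were computed. Below Rps2, the next highest row was Rpl23a, at 126.8 CPM per kb, with 122 ± 7.37 in Control (SD, n = 5). Exons of Tlcd1 on the opposite strand overlap 59.7% of the exonic bases of Rpl23a, and without known strand their reads cannot be told apart. The log2 fold change was 0.10 ± 0.05 for Rpl23a (adjusted p = 0.287).

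The 3 lowest rows were Rpl12 (2.00 CPM per kb), Rpl37 (2.35) and Rps20 (3.22). Rpl37 read 1.45 to 2.56 CPM in Control (median 1.77) and 1.67 to 2.38 in HFpEF (median 1.96), with 82.5% of the family's counts on copies. Its log2 fold change was 0.03 ± 0.17 (adjusted p = 0.952). The annotated transcript used for the length of Rps20 has 3706 bases, and its place among the lowest rows depends on that length. Before division by length its row held 11.9 CPM, against 2.48 for Rpl12 and 1.96 for Rpl37. Of the counts of Rps20 and its copies 44.4% lay on copies, and its log2 fold change was -0.05 ± 0.07 (adjusted p = 0.771).

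Paralogs can replace a ribosomal protein by a second version, and ratios within a library do not depend on scaling. Of 7 pairs, 5 had a paralog with a mean of at least 10 counts, and each was tested with an exact permutation test (two-sided, adjusted over the 5 pairs, smallest possible p 0.00794). None of the 5 passed. At an unadjusted p below 0.05 the count was also 0, and edgeR called none of the genes in these pairs.

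Rpl3l and Rpl3 are 74.8% identical in coding sequence. Rpl3l read 44.8, 47.9, 48.4, 43.0 and 41.9 CPM in Control 1 to 5 and 50.5, 45.7, 48.6, 46.3 and 51.0 CPM in HFpEF 1 to 5, and Rpl3 read 41.9, 40.7, 40.3, 41.8 and 48.6 and then 39.97, 45.3, 39.7, 43.1 and 38.4 CPM. On their own rows the pair had a similar level per length, 34.0 CPM per kb for Rpl3l and 31.1 for Rpl3. With copies added Rpl3 stood at 46.3 CPM per kb, above Rpl3l. The log2 ratio of their counts was 0.09 ± 0.19 in Control and 0.23 ± 0.16 in HFpEF (SD, n = 5), a difference of 0.15 (exact permutation p = 0.214, adjusted 0.357). Control 5 had the lowest ratio, the one Control library with more Rpl3 than Rpl3l. Of the counts of Rpl3 and its copies 32.9% lay on copies, while Rpl3l had none on copies, so the ratio to all Rpl3-like counts is lower than the ratio to the row. The log2 fold change was 0.10 ± 0.05 for Rpl3l (adjusted p = 0.305) and -0.05 ± 0.06 for Rpl3 (adjusted p = 0.719).

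The other paralogs were minor forms. Rps27l, which is known as a target of p53, was 76.2% identical to Rps27 in coding sequence, and its log2 ratio to Rps27 averaged -1.32 ± 0.16 in Control libraries and -1.14 ± 0.10 in HFpEF libraries (SD, n = 5; exact permutation p = 0.0714, adjusted 0.357). Rpl7l1 against Rpl7, 64.9% identical, gave -3.05 ± 0.14 and -3.15 ± 0.07 (exact permutation p = 0.175, adjusted 0.357). Rpl22l1 against Rpl22, 72.7% identical, gave -2.67 ± 0.23 and -2.78 ± 0.23 (exact permutation p = 0.405, adjusted 0.506). Rps4l, an annotated pseudogene, against the X-linked Rps4x gave -3.25 ± 0.37 and -3.19 ± 0.30 (exact permutation p = 0.651, adjusted 0.651). In each pair the groups overlapped.

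The genes themselves had log2 fold changes of 0.06 ± 0.07 for Rps27l and -0.12 ± 0.07 for Rps27, -0.04 ± 0.06 for Rpl7l1 and 0.06 ± 0.04 for Rpl7, 0.06 ± 0.13 for Rpl22l1, and 0.06 ± 0.17 for Rps4l and 0.03 ± 0.04 for Rps4x (SE). Of the remaining pairs, Rpl10l had 0 counts in every library, beside Rpl10 at 84.7% identity. Rpl39l, 85.0% identical to Rpl39, had 5 counts over all libraries, and Rpl39 gave 0.03 ± 0.08.

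**Figure D5:**
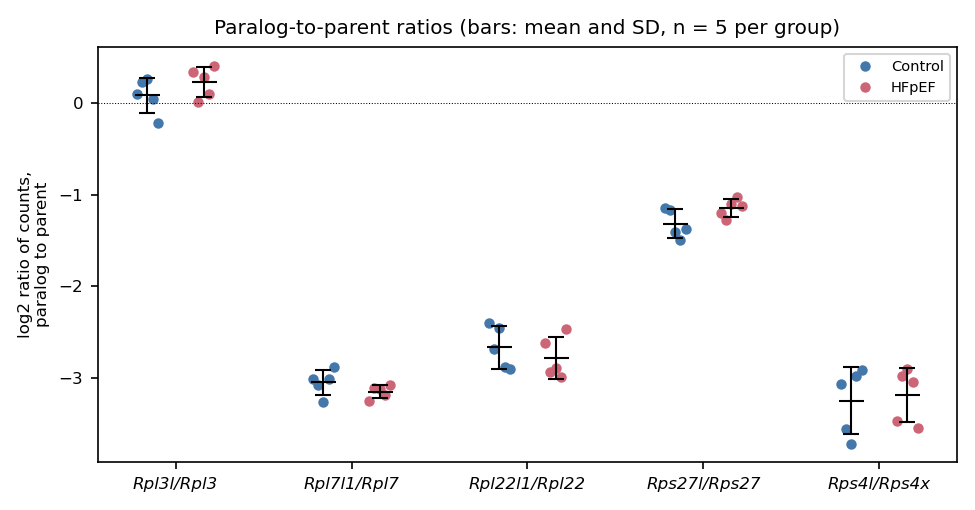
Log2 ratio of the counts of a paralog to those of its parent gene (vertical axis, 0 means equal counts) in each library, Control in blue and HFpEF in red, with the mean and SD of each group (n = 5) in black. Copies are not counted here. Rpl3l and Rpl3 have nearly equal counts on their own rows, the other paralogs lie below their parents, and the groups overlap in all 5 pairs.

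Ribosomal proteins and close partners outside the symbol rule were not called either. Of 5 such genes, among them Rack1 and Fau, 0 were called, with log2 fold changes between -0.07 for Rpl36al and 0.08 for Rps3a1. Many ribosomal protein genes also carry small nucleolar RNAs, guides for modifying ribosomal RNA, in their introns. The annotation placed 56 in 29 members; 24 were tested and 0 were called by edgeR. Of the 24 log2 fold changes 21 lay below 0, where the median over all genes tested was -0.01. No comparison was made with genes of a similarly low level. At an unadjusted p below 0.05 the test held 4, or 16.7%, all lower in HFpEF, against 9.91% of all genes lower. These 4, named after their values were seen, were Snora52 in Rplp2 (-0.41, adjusted p = 0.0752), Snord15b in Rps3 (-0.31, adjusted p = 0.0535), Snord83b in Rpl3 (-0.47, adjusted p = 0.145) and Gm24134 in Rpl7a (-0.79, adjusted p = 0.232).

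The machinery that makes, regulates and uses ribosomes was read from 10 lists with 193 tested genes, chosen with earlier results of these data known. In edgeR's test 3 were called higher and 3 lower, 1.55% in each direction against 3.24% and 2.09% of all genes, and 45 had an unadjusted p below 0.05, or 23.3% against 20.5%. In 5 lists no gene was called. These were other transcripts of the TOP class (0 of 21), elongation and release factors (0 of 13), mTORC1, S6 kinase, LARP1 and 4E-BP (0 of 25), p53 and ribosomal stress (0 of 9) and snoRNA host genes that encode no ribosomal protein (0 of 11). At an unadjusted p below 0.05 their counts were 6, 1, 5, 2 and 1.

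Genes for making ribosomal RNA and assembling ribosomes were lower where they were called. Polr1a, the largest subunit of RNA polymerase I, which transcribes ribosomal RNA genes, read 60.7, 61.1, 62.4, 62.8 and 61.2 CPM in Control 1 to 5 and 53.5, 55.5, 51.8, 53.7 and 52.3 CPM in HFpEF 1 to 5. The groups were well apart, with a log2 fold change of -0.21 ± 0.04 (SE, edgeR adjusted p = 0.00796), and it was the 1 call among 18 genes of that list. Nop56, a core protein of the box C/D particles that methylate ribosomal RNA, read 15.7 to 18.0 CPM in Control and 13.2 to 14.6 in HFpEF, without overlap (-0.28 ± 0.06, adjusted p = 0.0107). Noc2l, a factor of large-subunit assembly, read 14.2 to 15.5 CPM in Control and 12.1 to 14.1 in HFpEF (-0.21 ± 0.06, adjusted p = 0.0487). Those were 2 of 51 biogenesis genes, whose median log2 fold change was -0.07 beside -0.01 over all genes. At an unadjusted p below 0.05 in edgeR's test, in either direction, there were 10 of these 51 and 4 of the 18 in Polr1a's list. Both shares lay near the 20.5% of all genes tested.

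Calls in the other direction came from 3 lists. Eif3m, a subunit of the initiation factor that brings the small subunit to messenger RNA, read 31.8 to 35.5 CPM in Control and 37.6 to 46.4 in HFpEF, without overlap (0.28 ± 0.06, adjusted p = 0.0102), and was 1 of 29 initiation factors. Rnf10, a ubiquitin ligase that marks Rps2 and Rps3 on stalled small subunits, read 103 to 122 CPM in Control and 126 to 148 in HFpEF (0.25 ± 0.06, adjusted p = 0.0176), 1 of 12 in ribosome rescue and quality control. Myc, a transcription factor that drives ribosome production in growing cells, read 1.49 to 1.89 CPM in Control and 1.96 to 2.79 in HFpEF (0.51 ± 0.13, adjusted p = 0.0290), 1 of 9 tested in its network. The median log2 fold change was 0.02 over the initiation factors, -0.10 over ribosome rescue and quality control and -0.04 over the MYC network. At an unadjusted p below 0.05 in edgeR's test, in either direction, their counts were 8 of 29, 7 of 12 and 2 of 9. The share of all genes was 20.5%.

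Noc2l was called in 6 of 19 alternatives, with adjusted p-values up to 0.180, and lost its call in 9 of the 10 fits that left out 1 library. Myc was called in 9 of 19, with adjusted p-values up to 0.130, and lost its call in 7 of those 10 fits. Rnf10 was called in 16 of 19; it lost its call without HFpEF 3 (adjusted p = 0.0550), with the replicate block (0.0574) and under scaling by total counts (0.130). Eif3m was called in 18 of 19 and fell short under total counts (0.0832). Polr1a and Nop56 stayed called in all 19 alternatives run on them. In the lists with no call, the genes with the smallest p were Nap1l1 of the TOP class (0.17, adjusted p = 0.0717), Eef2 (0.10, adjusted p = 0.220), Rragd of the mTORC1 list (-0.37, adjusted p = 0.115), Sesn2 (-0.42, adjusted p = 0.132) and Snhg3 (0.30, adjusted p = 0.150).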

How the data were processed

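RNA-seq libraries of left ventricle were deposited by the authors as 1 table of gene counts for 10 libraries, 5 per group, with totals of 31286355 to 46108710. Per the labels' protocols, total RNA was depleted of ribosomal RNA before library construction; the sources used here do not give the strand setting. The submitters' processing notes name RSEM 1.2.15, Bowtie2 2.1.0 and build mm10, without saying what each was used for. The authors deposited whole numbers, read here as the estimated counts of RSEM, which divides reads that match several transcripts; rounding changed none of them. The table also held 92 spike-in rows with 0 counts, which were left out.

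Genes were filtered with filterByExpr (minimum count 10) and tested with edgeR 4.0.16 in R 4.3.3 (TMM scaling, robust quasi-likelihood, Benjamini-Hochberg adjustment over 18491 genes, threshold 0.05); DESeq2 1.42.0 was an alternative. CPM use TMM-scaled totals, fold changes are HFpEF minus Control, the SE comes from the estimate and its F statistic, and intervals are 95%. The fit was tested on simulated data. Replicates were compared by chi-square, and no 2 agreed within sampling noise (4.61 to 25.9 per degree of freedom).

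Coordinates, transcript lengths, biotypes and overlaps came from GENCODE M21 (GRCm38, the assembly of mm10) by identifier, which matched all 86 members. Exons of 16 members overlap another gene over at least 10% of their bases. Copies were sought with BLAST+ 2.17.0. Paralog ratios were log2 of counts plus 0.5.

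The members and lists were chosen with earlier results of these data known. Genes to name were the 8 members with the smallest p, the 4 largest changes each way (mean log2 CPM of at least 1), the 3 highest and 3 lowest levels per kb, and the paralog pairs; of each related list, called members up to 4, otherwise the one with the smallest p. Some genes are counted in the totals but not reported here by name. The sums with copies, the fits without the deeper Control 4 and 5, and Gm28037 were chosen after seeing the data. Other alternatives were RLE, upper quartile and total-count scaling, scaling without mitochondrial genes, no filter, a minimum count of 50, a replicate block, leaving out each library, adding -ps rows, and a transcript length offset.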

Additional observations from a re-analysis of the deposited data

Results flagged for a closer look

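In 9 of 112 groups of 5 libraries examined (named genes, sums with copies, library measures and paralog ratios), 1 library stood apart from the other 4 by more than Dixon's 95% limit; chance gives about 1 group in 20. Control 1 stood apart for Rpl10, at 12.5 CPM against 9.01 to 9.42, and for Rpl12, at 3.33 CPM against 2.35 to 2.61. Both rows hold under 12% of their family's counts, and the sums with copies did not stand apart in Control 1. Control 5, the deepest library, stood apart for Rpl3, at 48.6 CPM against 40.3 to 41.9, for Rpl3 with copies, at 70.9 against 59.3 to 62.6, and for Rpl15 with copies, at 63.8 against 54.5 to 56.4. The share of counts outside the mitochondrial genome that ribosomal protein genes held was also apart there, at 0.560% against 0.499% to 0.512%. HFpEF 3 stood apart for Rps26, at 25.7 CPM against 21.4 to 22.4, and HFpEF 1 for Rpl7l1 with copies, at 15.7 against 16.4 to 16.7. Control 2 stood apart for Snhg3, at 2.78 CPM against 2.51 to 2.58.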

How the results depend on the processing

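The count of ribosomal protein genes called higher was 0 in every alternative run, and the count called lower was 0 in all except scaling by total counts, with 1 (Rpl32). That scaling moved the median log2 fold change of the members to -0.082, while their distance from the median of all genes was 0.03, as with TMM; over the fits leaving out 1 library the median ran from -0.0036 to 0.043. Scaling by total counts also gave 0 higher and 22 lower among the related genes, while all genes called rose from 985 to 1523. Lower calls among the related genes numbered 6 with upper quartile scaling and 6 at a minimum count of 50, and DESeq2 gave 7 in each direction. All genes called numbered 976 with upper quartile scaling, 1011 at a minimum count of 50 and 1448 with DESeq2. Leaving out 1 library gave 1 to 3 higher and 2 to 4 lower among the related genes, with 554 to 1101 of all genes called. The lowest count, 1, was without HFpEF 3. The cause of these differences was not tested. Replicate numbers did not pair the libraries: same-numbered deviations correlated between -0.110 and 0.0638, and 2 of 5 libraries correlated best with their own number. With the replicate block 0 members were called, their median was 0.02, and the related genes gave 2 higher and 2 lower; all genes called fell from 985 to 744.

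Some estimates changed sign. Most of them lay near 0 in the main fit, but Rpl10 (-0.28), Rpl12 (-0.18) and Rps27 (-0.12) lay further from it. Scaling by total counts moved the median of all genes from -0.01 to -0.11, and with that common shift the sign changed for Rpl22l1 (-0.0373), Rpl37 (-0.0729), Rpl39 (-0.0782), Rpl7 (-0.0370), Rps27l (-0.0465), Rps4l (-0.0464), Rps4x (-0.0677) and Eef2 (-0.0039). Rpl10 became 0.0540 with -ps rows and 0.0533 with copies, and with copies Rpl12 became 0.0937 and Rpl37 -0.0220. Without Control 4 and Control 5 together, Rpl22l1 was -0.0867, Rpl3 0.0144, Rpl37 -0.0937, Rpl7l1 0.0233 and Rps27 0.00626. Leaving out 1 library gave ranges of -0.0550 to 0.139 for Rpl37, -0.0300 to 0.0775 for Rpl39, -0.0323 to 0.154 for Rps4l, -0.0824 to 0.0123 for Rpl3, -0.0786 to 0.0124 for Rpl7l1 and -0.0036 to 0.148 for Rpl22l1. None of these was called. For the ratio of Rps4l to Rps4x the range was -0.0570 to 0.149.

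At this depth the interval of 17 of the 81 members still reached 1.2-fold. Rows of genes with near-identical copies carry a further uncertainty in where reads were placed. These intervals cover the spread between libraries, so placement that differs between libraries enters them. A misplacement that is the same in all libraries does not.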
